A study of Mustela putorius furo with 8 samples.

Results

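Cluster 9 of the CF cells was a group of pancreatic duct epithelial cells set apart by the study's own clustering, and its members were the cells that the deposited cell table assigned to that cluster. It held 406 of the 11345 CF cells and of the 32945 cells of the series, and 385 of them came from the day 2 library, where they were 8.56% of 4499 cells (95% Clopper-Pearson interval 7.76 to 9.41). The authors classed the cluster as ductal by its correlation with reference expression profiles. The cells were polarized pancreatic ductal epithelia from newborn ferrets 1 to 3 days old, with the genotype CFTR KO/KO (CF) or wild type (WT), and were grown at an air-liquid interface for 2, 5, 7 or 9 days. Cells of several animals were pooled for each genotype, and 1 droplet library was sequenced for each genotype and day, so no value below has a replicate and intervals cover counting error only. Cluster 9 was compared with other cells of the same libraries, with no test, and the CF and WT libraries were not tested against each other.

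Duct cells secrete a bicarbonate-rich fluid through the CFTR channel, and epithelial progenitors divide before they polarize and mature. TOP2A and MKI67 are made by dividing cells, the first as the topoisomerase that untangles replicated DNA and the second as a coat protein of mitotic chromosomes. SCGB1A1 is the secretoglobin of airway club cells, DUOX2 a hydrogen peroxide-producing oxidase of mucosal epithelia, GRHL3 a grainyhead transcription factor of epithelial barriers, and EGLN3 an oxygen-sensing prolyl hydroxylase.

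The targeted gene was measured first. CFTR mRNA was counted in all 4 CF libraries, at 2.50, 8.69, 11.1 and 11.4 CPM (the UMIs of a gene per 1000000 UMIs of all genes in the same cells) on days 2, 5, 7 and 9, and at 6.57, 16.9, 15.9 and 29.5 CPM in the WT libraries. The CF level was lower than the WT level on each day, but CFTR UMIs were present in CF cells, so the files show a lower level and not an absence of reads. Cluster 9 had 20 CFTR UMIs at day 2, or 1.92 CPM, against 2.57 CPM in the other CF day 2 cells, a ratio of 0.75 (0.45 to 1.18). PDX1, a transcription factor of pancreatic progenitors, gave 26 UMIs or 2.50 CPM in the cluster and 3.47 CPM in the other cells. PDX1 was at 3.37 to 5.04 CPM in the CF libraries, against 0 UMIs on 3 WT days and 1 UMI on WT day 7. The libraries held 1607 to 6224 retained cells with median depths of 14949 to 23427 UMIs. Of the 385 day 2 barcodes of the cluster, 2 were also present in another library.

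Few cells of the cluster lay outside day 2. The day 5 library held 21 members, 0.764% of its 2750 cells (0.473 to 1.16). None of 1607 cells at day 7 and none of 2489 cells at day 9 were members. A count of 0 was taken to allow 3 cells, or shares of up to 0.187% and 0.121%, and the Clopper-Pearson upper limits were 0.229% and 0.148%. The day 5 members were phase-called G2M in 16 of 21 cells and had TOP2A at 167 CPM (138 to 199), against 31.2 CPM (27.9 to 34.8) in the day 2 members. The clusters were defined on the same cells, so the absence of later members describes how the cells were divided into clusters.

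The label of the cluster, mitotic and SCGB1A1, was checked against its 6 genes. Over all days, cluster 9 had the highest level of GRHL3 and EGLN3 among the 30 CF clusters. GRHL3 stood at 74.0 CPM (69.0 to 79.2), against 59.3 CPM in cluster 19 and 58.1 CPM in cluster 15. EGLN3 stood at 44.8 CPM (41.0 to 48.9), against 30.7 CPM in cluster 8. The other 4 genes were higher in another cluster. TOP2A was at 39.95 CPM in cluster 9 and at 339 CPM in cluster 24, and MKI67 at 20.2 and 189 CPM. For these 2 genes cluster 9 came second, and its interval for TOP2A (36.3 to 43.8) overlapped that of cluster 10 (32.9 to 40.1), as did its interval for MKI67 (17.6 to 23.0) with 16.5 to 21.7 in cluster 10. SCGB1A1 was at 16.2 CPM (13.9 to 18.7) in cluster 9 and at 38.8 CPM (35.7 to 42.1) in cluster 4, with cluster 8 at 14.4 CPM (12.7 to 16.3). DUOX2 had rank 4 with 41.7 CPM, behind 114 CPM in cluster 29, 59.6 CPM in cluster 25 and 54.5 CPM in cluster 4. Since cluster 24 led both division genes and cluster 4 led SCGB1A1 in CPM, the cluster is named below by its number.

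Across whole libraries TOP2A was lower at the last day than at the first in both genotypes. From CF day 2 to CF day 9, TOP2A went from 21.2 to 1.88 CPM and SCGB1A1 from 10.4 to 0.440 CPM. In the WT libraries TOP2A went from 48.4 CPM on day 2 to 0.955 CPM on day 9, while SCGB1A1 lay between 9.96 and 12.6 CPM on all 4 days. GRHL3 was at 31.8 CPM on CF day 2 and 16.6 CPM on WT day 2, and DUOX2 at 20.6 and 8.52 CPM. These library values mix all cell groups. Among cells of 1 phase, TOP2A in the CF G2M-called cells was at 112 CPM on day 2 and 2.97 CPM on day 9, and SCGB1A1 in CF G1 cells at 10.6 and 0.318 CPM. The G2M call covered 620 of 4499 cells on day 2 and 879 of 2489 cells (35.3%) on day 9. On day 9 these cells held 50 TOP2A UMIs in all, so the call need not mark the same kind of cell on both days.

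SCGB1A1 was held by few cells of the cluster. At day 2, 36 of 385 cells had a SCGB1A1 UMI (9.35%, 6.64 to 12.7), and 9 cells with 5 or more UMIs supplied 131 of the 178 UMIs. In the other CF day 2 cells 77 of 4114 had a UMI (1.87%, 1.48 to 2.33). When every cell was thinned to 3000 UMIs, the shares were 4.01% of 374 cells (2.26 to 6.53) and 0.710% of 4086 cells (0.476 to 1.02), and clusters 1 and 2 together gave 0 of 1397 cells, with a Clopper-Pearson upper limit of 0.264% at that depth. Before thinning, 4 of 1402 cells of clusters 1 and 2 had a UMI (0.285%). Leaving out cells below 3000 UMIs removed 11 cells of the cluster and 28 of the others. Cluster 4 had 3.11% at that depth (1.88 to 4.81), after 6.04% before thinning (4.29 to 8.22). Of its 589 unthinned UMIs at day 2, 563 lay in 21 cells with 5 or more. Cluster 8 had 1.69% (0.682 to 3.45), after 6.28% before thinning (4.14 to 9.07). The intervals of both clusters overlapped that of cluster 9.

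GRHL3 was spread over most of the cells. It was counted in 309 of 385 cluster cells (80.3%, 75.9 to 84.1), with a median of 2 UMIs per cell, and in 31.1% of the other cells (29.7 to 32.5). At 3000 UMIs the shares were 25.4% (21.1 to 30.1) and 5.60% (4.92 to 6.35), against 1.5% in clusters 1 and 2. EGLN3 was counted in 65.7% of cluster cells, 34.2% of the others and 18.9% of clusters 1 and 2, and DUOX2 in 54.3%, 16.7% and 1.07%. At 3000 UMIs EGLN3 stood at 16.3%, 6.14% and 4.51% of these cells and DUOX2 at 13.9% (10.6 to 17.8), 3.77% and 0.215%. The EGLN3 share of the other cells was thus near that of clusters 1 and 2. In the deeper cells of cluster 8 the shares before thinning were 82.1% for GRHL3, 68.4% for EGLN3 and 61.4% for DUOX2, each above that of cluster 9. At 3000 UMIs cluster 8 had 11.4% for GRHL3 (8.46 to 14.8) and 7.49% for EGLN3 (5.14 to 10.5), both below cluster 9. Its DUOX2 share of 11.1% (8.25 to 14.5), and that of cluster 4, 12.9% (10.4 to 15.9), overlapped that of cluster 9.

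TOP2A was again held by a minority. Of the 385 cells, 265 had no TOP2A UMI, and 17 cells with 5 or more supplied 152 of its 324 UMIs. Those 17 cells had a median of 47452 UMIs, against 22670 in the cells with no TOP2A UMI, and 16 of them were called G2M. GRHL3 was at 52.7 CPM (38.1 to 70.9) in these TOP2A-rich cells and at 80.0 CPM (73.2 to 87.3) in cells with no TOP2A UMI. The TOP2A-rich cells of cluster 24 had GRHL3 at 16.2 CPM (12.1 to 21.3), below both. SCGB1A1 gave 6 UMIs in the 17 cells, or 7.35 CPM (2.70 to 16.0). Conversely, the 36 cells with a SCGB1A1 UMI had TOP2A at 44.1 CPM (32.1 to 59.3), against 29.8 CPM (26.4 to 33.5) in the 349 cells without one. Of these 36 cells 9 were called G1, 9 S and 18 G2M.

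By the deposited cell cycle phases, the G2M share of the cluster lay between that of cluster 24 and those of the other day 2 clusters. Of the 385 cells, 142 were called G1 (36.9%, 32.1 to 41.9), 92 S (23.9%, 19.7 to 28.5) and 151 G2M (39.2%, 34.3 to 44.3). Of the other 4114 CF day 2 cells, 62.1% were G1, 26.5% S and 11.4% G2M (10.4 to 12.4). Among the 12 clusters with at least 30 cells on day 2, cluster 9 had the second highest G2M share, after 82.5% in cluster 24 (75.5 to 88.1). Its G2M interval lay above those of the other 10 clusters, of which the highest was 16.0% in cluster 28 (10.5 to 22.9). Cluster 10 was almost wholly in S, at 92.8% (89.5 to 95.3). The plot of phase shares shows these clusters in the order of their G2M share.

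**Figure D1:**
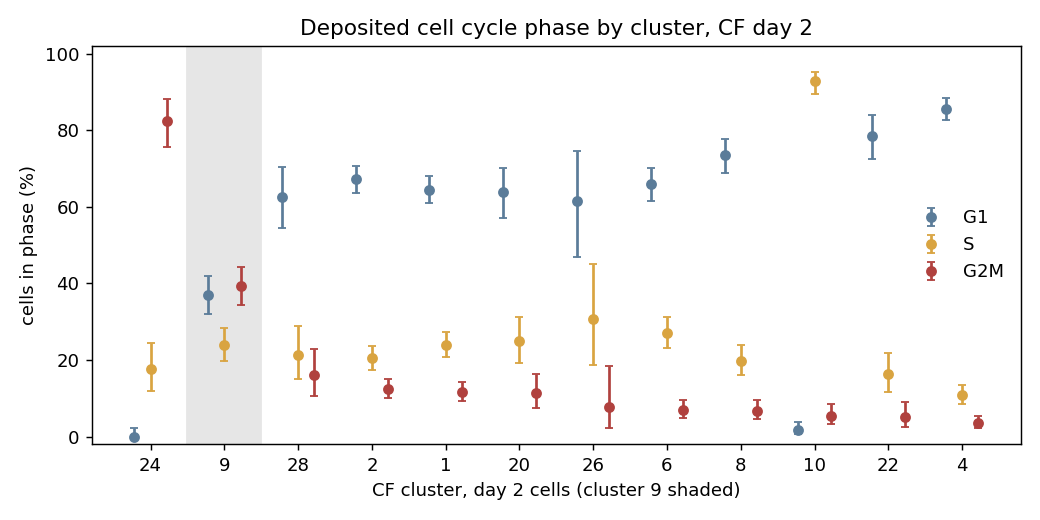
Share of CF day 2 cells in each deposited cell cycle phase (%, vertical axis) for the 12 clusters with at least 30 cells, ordered by G2M share, with 95% Clopper-Pearson intervals. Cluster 9, shaded, had 39.2% of its cells in G2M, between cluster 24 at 82.5% and cluster 28 at 16.0%.

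The size of these shares depended on how the phase was called. Phases called again with scanpy from published S and G2M gene lists placed 81.6% of cluster 9 cells in G1 (77.3 to 85.3), 0.779% in S and 17.7% in G2M (13.98 to 21.8), and 4.08% of the other cells in G2M (3.50 to 4.73). At 3000 UMIs per cell the G2M shares were 15.5% (12.0 to 19.6) in cluster 9 and 6.51% (5.77 to 7.31) in the other cells. Deposited and repeated calls were equal for 54.3% of cluster 9 cells and for 89.6% of cluster 24 cells. In clusters 1 and 2 the repeated call gave 1 G2M cell of 1402, where the deposited shares were 11.6% and 12.4%. The G2M share of cluster 9 was above that of the other day 2 cells together and below that of cluster 24 by both callers. At 3000 UMIs its interval overlapped that of cluster 10, which had 13.9% of cells in G2M (10.4 to 18.0).

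Within the cluster, the dividing-cell genes followed the phase. The phase scores are built from cell cycle genes, so the following levels describe the calls and are not separate evidence of division. TOP2A was at 3.38 CPM (1.75 to 5.90) in G1 cells, 16.7 CPM (12.0 to 22.5) in S cells and 62.5 CPM (55.2 to 70.4) in G2M cells, and the 3 intervals did not overlap. MKI67 was at 1.69, 10.7 and 37.0 CPM. TOP2A was counted in 11 of 142 G1 cells, 31 of 92 S cells and 78 of 151 G2M cells, against 17 of 323 G2M-called cells outside clusters 9, 10 and 24. Outside these clusters a G2M call was therefore seldom accompanied by a TOP2A UMI, in cells with a median of 14022 UMIs against 28208 in cluster 9. The ratio of G2M to G1 was 18.5 for TOP2A (10.4 to 36.2), 21.9 for MKI67 (9.85 to 60.6), 28.2 for CENPF, a kinetochore protein (15.6 to 56.9), and 24.6 for CCNB1, the mitotic cyclin (9.38 to 91.9).

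The other 4 label genes differed far less between phases. GRHL3 was at 79.7, 77.8 and 72.2 CPM in G1, S and G2M cells, and its ratio of G2M to G1 was 0.906 (0.769 to 1.07). EGLN3 was at 48.7, 46.0 and 45.1 CPM, with a ratio of 0.926 (0.751 to 1.14). Both intervals include 1. DUOX2 was at 35.2, 38.9 and 48.4 CPM, with a ratio of 1.37 (1.1 to 1.73). SCGB1A1 was at 24.5, 10.7 and 14.8 CPM, and its ratio of 0.604 (0.431 to 0.844) rests on 4 G1 cells that held 82 of 87 UMIs. By cells the order was opposite, with a SCGB1A1 UMI in 9 of 142 G1 cells and 18 of 151 G2M cells. With phases called again at 3000 UMIs the SCGB1A1 ratio was 1.16, that of DUOX2 1.03 and that of TOP2A 5.24. In all the other CF day 2 cells the ratio of G2M to G1 was 0.580 for DUOX2 (0.481 to 0.693) and 0.805 for GRHL3 (0.702 to 0.919), and in WT day 2 cells 0.270 for DUOX2 (0.196 to 0.363). By the deposited phases, the DUOX2 ratio was above 1 in cluster 9 and below 1 in the other CF day 2 cells together and in WT day 2 cells. In the WT day 9 library it was 1.15 (1.05 to 1.26). Cluster 8, one of those other clusters, had a DUOX2 ratio of 1.38 (1.08 to 1.75) like that of cluster 9.

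**Figure D2:**
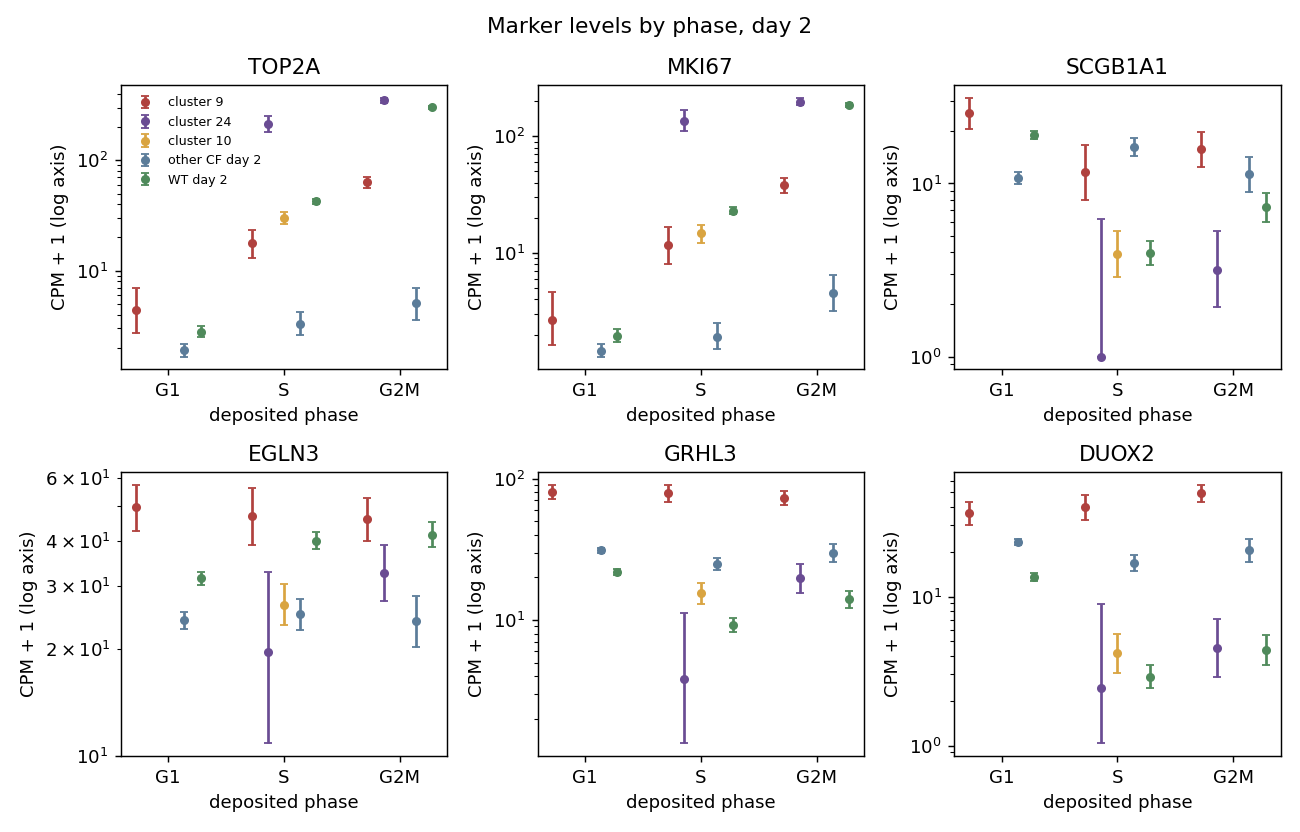
Level of the 6 label genes (CPM plus 1, log axis) by deposited phase in day 2 cells of cluster 9, cluster 24, cluster 10, the other CF cells without clusters 10 and 24, and WT, with 95% Poisson intervals for sets of at least 20 cells. In G2M cells TOP2A was at 62.5 CPM in cluster 9 and 348 CPM in cluster 24, whereas GRHL3 was at 72.2 and 18.8 CPM.

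The G2M cells of cluster 9 held lower levels of mitosis genes than those of cluster 24. Cluster 24 led TOP2A and MKI67 among the CF clusters, so the direction of this difference came with the choice of cluster. TOP2A was at 62.5 and 348 CPM, a ratio of 0.179 (0.157 to 0.205). UBE2C, which loads ubiquitin for cyclin destruction, had a ratio of 0.150 (0.133 to 0.169), and TPX2, a spindle assembly factor, 0.173 (0.146 to 0.205). The sum of 74 mitosis genes was 1782 CPM against 8603 CPM, a ratio of 0.207 (0.202 to 0.212). GRHL3 had a ratio of 3.83 (2.95 to 5.05), DUOX2 13.6 (7.80 to 26.0) and SCGB1A1 6.78 (3.24 to 16.4). The SCGB1A1 ratio rests on 64 UMIs in the G2M cells of cluster 9, 40 of them in 4 cells. Cluster 24 had 8 SCGB1A1 UMIs at day 2, 6 of them in 1 cell, and the interval does not cover this unevenness. Per cell, the median sum of the mitosis genes was 1170 CPM in G2M cells of cluster 9, 474 CPM in its G1 cells and 7321 CPM in G2M cells of cluster 24. Of the 151 G2M cells, 6 were above 4152 CPM, the 10th percentile of the cluster 24 cells. The G2M-called cells outside clusters 9, 10 and 24 had a median of 793 CPM.

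**Figure D3:**
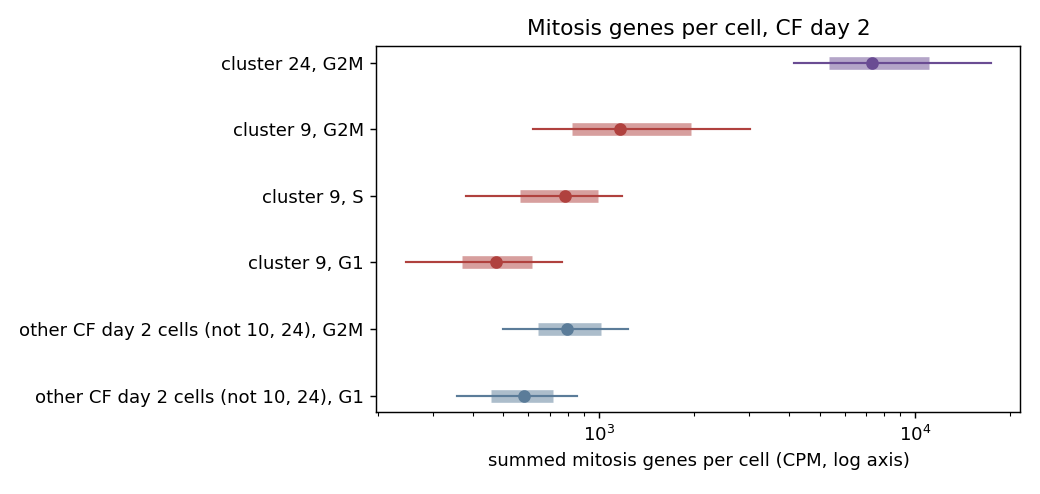
Summed level of 74 mitosis genes per cell (CPM, log axis) in CF day 2 cells by cluster and deposited phase. Points are medians, thick bars the range between the quartiles and thin lines the 10th to 90th percentiles. G2M cells of cluster 9 had a median of 1170 CPM and G2M cells of cluster 24 one of 7321 CPM.

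Few cells of the cluster held both SCGB1A1 and TOP2A. Without thinning, 16 of 385 cells held both (4.16%, 2.39 to 6.66), and the product of the separate shares, 36 and 120 cells, gives 11.2 cells. At 8000 UMIs 4 of 337 cells held both, where the product gives 2.99. At 3000 UMIs the number was 1 of 374, too few to compare with the product. GRHL3 was counted in 87.5% of cells with a TOP2A UMI and in 77.0% of those without before thinning. After thinning the cells with TOP2A and GRHL3 were 3 of 22 at 3000 UMIs and 18 of 48 at 8000 UMIs, or 13.6% and 37.5%, against 26.1% and 48.8% of cells without TOP2A. These numbers are too small to give an order at equal depth.

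Against the other CF day 2 cells, cluster 9 had many more genes at lower than at higher relative level. Of 5533 genes with at least 20 CPM in either group, 9 were at least 2-fold higher (0.163% of the genes compared) and 454 at least 2-fold lower (8.21%), on the scale of log2(CPM + 1). The median difference of all compared genes was -0.20. With TMM scaling, which sets that median near 0, the counts were 60 higher and 236 lower, and the lower share of such genes went from 98.1% to 79.7%. The 4 label genes above the filter had log2 differences of 1.47 for GRHL3, 1.15 for DUOX2, 0.94 for EGLN3 and 0.61 for TOP2A. SCGB1A1, at 17.1 and 9.63 CPM, and MKI67, at 18.6 and 11.3 CPM, were below the filter. The TOP2A ratio of 1.55 (1.38 to 1.75) set the cluster against cells that included cluster 24.

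The 9 higher genes fell into a few kinds, and none of them was 2-fold higher than in cluster 8, the most similar cluster. GRHL3 was at 76.1 CPM against 26.8 CPM, a ratio of 2.84 (2.62 to 3.08), and DUOX2 at 41.6 against 18.2 CPM, 2.28-fold (2.05 to 2.54). ATP10A, a phospholipid flippase, and PLCH1, a phospholipase C, were 2.58-fold (2.21 to 3.00) and 2.26-fold (2.02 to 2.52) higher. DUOX2, ATP10A and PLCH1 passed the filter of 20 CPM through cluster 9 alone. RPS29, a ribosomal protein, was at 7365 against 3335 CPM. NDUFB1 of respiratory complex I was at 354 against 160 CPM and ATP5MK of ATP synthase at 600 against 274 CPM. ND3 and COX1, both encoded by mitochondrial DNA, were at 4688 against 2151 CPM and 26383 against 12637 CPM. Just below the 2-fold limit stood ND4L at a log2 difference of 0.99, ATP5F1E at 0.99, LSM5 of the RNA splicing machinery at 0.98 and RPL37A at 0.96.

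The lower genes were led by ribosomal RNA. LOC123388621, LOC123388635, LOC123388618 and LOC123388619, all 4 annotated as rRNA, had log2 differences of -3.12, -3.01, -2.98 and -2.96. LOC101679740 followed with 48.2 CPM against 305 CPM. IER5L and SERTAD1, small transcriptional regulators, were at 7.02 against 40.2 CPM and at 14.6 against 76.0 CPM. TNFRSF12A, the TWEAK receptor, was at 53.7 against 231 CPM, and HOMER3, a scaffold protein, at 17.4 against 74.9 CPM. SYT8, GALK1, the galactokinase, DPP7, LY6D, LOC123392916 and an unnamed feature of the annotation completed the 15 lowest, with log2 differences of -1.90 to -2.04. Of the 454 lower genes 446 were annotated as protein-coding. Their median genomic span was 8.18 kb, against 23.2 kb for all compared genes, in the RefSeq annotation of ASM1176430v1.1.

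**Figure D4:**
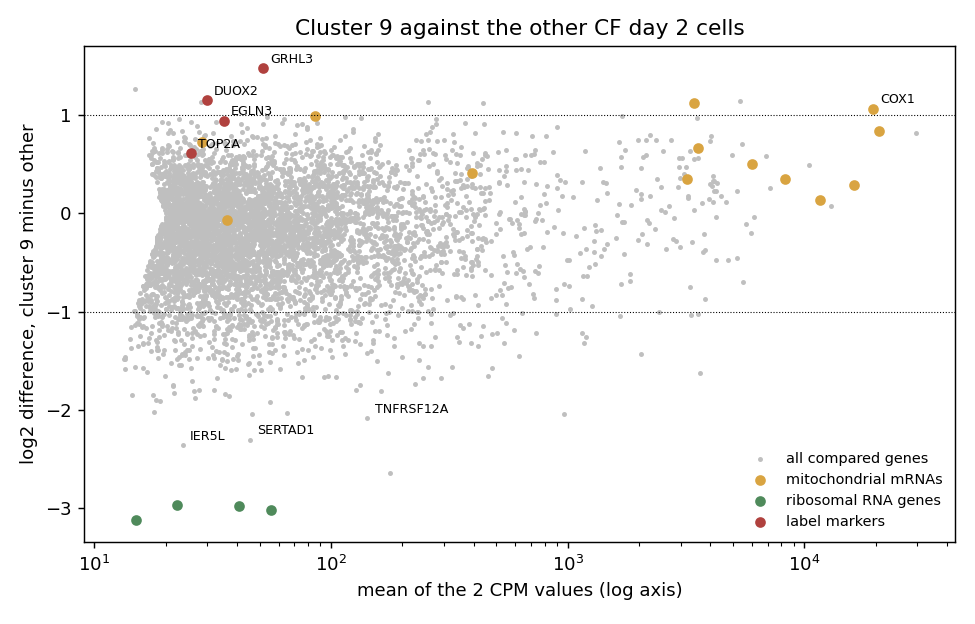
Log2 difference of cluster 9 minus the other CF day 2 cells for 5533 genes, against the mean of both CPM values (log axis), with 2-fold limits dotted. The 4 ribosomal RNA genes lie between -2.96 and -3.12, COX1 at 1.06 and GRHL3 at 1.47.

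The mitochondrial and ribosomal RNA shares of single cells moved with these differences. The mitochondrial share had a median of 11.7% in cluster 9 (lower quartile 9.70) and 6.88% in the other cells, and was the highest of the 12 day 2 clusters, followed by 8.86% in cluster 8. All 13 mitochondrial mRNAs were compared, 2 were at least 2-fold higher, beside 0.163% of all compared genes, none 2-fold lower, and their median log2 difference was 0.50 beside -0.20 for all genes. With TMM scaling 4 of the 13 were 2-fold higher, beside 60 of all 5533 compared genes. The sum of all 13 was 112658 CPM, 1.53-fold that of the other cells. No ribosomal RNA UMI was counted in 59.0% of cluster 9 cells, against 6.17% of the others and 23.4% of cluster 8. The cells without a ribosomal RNA UMI were 65.5% of G1, 59.8% of S and 52.3% of G2M cells of the cluster, and the median mitochondrial shares were 11.9%, 11.6% and 11.3%. High mitochondrial and low ribosomal RNA shares were thus present in all 3 phases. Of 83 compared ribosomal protein genes 1 was higher and 4 lower, with a median of 0.18, and of 55 nuclear genes of the respiratory chain 2 were higher and 3 lower, with a median of -0.02. Of all compared genes 0.163% were higher and 8.21% lower, so the lower counts of both lists are near or below the background. Of 66 ribosomal RNA genes 4 were compared, all of them lower, and the whole list summed to 39.7 CPM against 297 CPM. These 4 genes passed the filter of 20 CPM through the other cells alone, so they could only be called lower. With mitochondrial genes left out of the totals 19 genes were higher and 375 lower. Whether RNA quality or cell damage contributed to the lower genes was not tested.

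**Figure D5:**
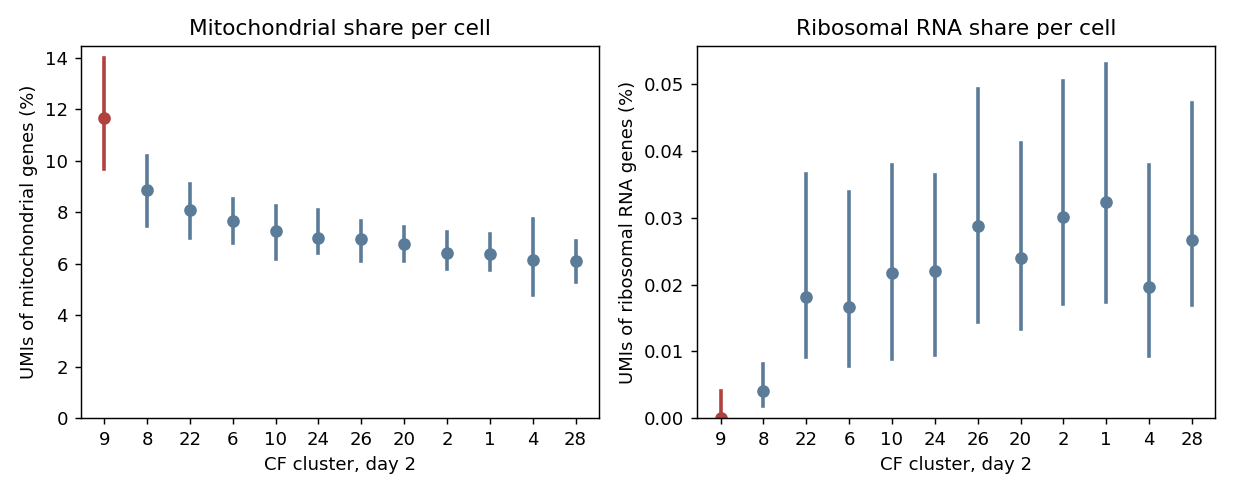
Share of UMIs from mitochondrial genes (left) and from ribosomal RNA genes (right) per cell, in %, for the 12 CF clusters with at least 30 cells on day 2, ordered by mitochondrial share. Points are medians and lines quartiles. Cluster 9 had the highest mitochondrial median, 11.7%, and a ribosomal RNA median of 0.

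Many of the lower genes were also lower in clusters of later days, compared with cells of their own libraries. These clusters were chosen after their values had been seen. In cluster 15 on day 5, 557 of 5798 genes were at least 2-fold lower than in the rest of its library (9.61%), and 330 of them were among the 454, 72.7% of the cluster 9 list and 59.2% of its own. In cluster 19 on day 9 the shared number was 295, 65.0% of the cluster 9 list and 32.2% of its own 915 lower genes, which were 15.2% of 6000 compared. The mitochondrial share of cells had a median of 12.7% in cluster 15 and 12.8% in cluster 19, against 6.76% and 5.65% in their whole libraries, and GRHL3 was at 58.3 and 57.7 CPM. TOP2A, at 2.58 and 0.194 CPM, was lower there than in cluster 9. Cluster 8, on day 2, was compared with overlapping control cells, and the 454 genes had a median log2 difference of -0.62 there, beside -0.10 for all genes. Only 76 of the 454 were 2-fold lower there (16.7%), which was 53.1% of the 143 lower genes of cluster 8 among 5576 compared.

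Of the genes of 5 lists of mitosis and replication that passed the filter of 20 CPM, none was 2-fold higher and RFC2 was 2-fold lower, beside 0.163% and 8.21% of all compared genes, so these counts say little about the lists. Summed over all measured members, the lists had ratios to the other cells of 0.978 for mitotic kinases (0.935 to 1.02), 1.27 for spindle proteins, 1.11 for centromere and condensin genes, 0.881 for cyclins and 0.89 for replication. The sums were thus higher for 2 lists and lower for 2, in a comparison whose other cells included clusters 10 and 24. Of 17 measured mitotic kinases and checkpoint genes, 2 passed the filter of 20 CPM, at log2 differences of -0.32 for BUB3 and 0.54 for TPX2. KIF20B and CKAP2, of the spindle list, were at 0.49 and 0.44. TPX2, KIF20B and CKAP2 passed the filter through cluster 9 alone. Of 6 compared centromere and condensin genes none was 2-fold higher, with CENPF at 0.31, 41.5 against 33.2 CPM. Of 5 cyclin genes compared, CDC25B was at 0.41 and UBE2S at -0.91, and neither passed 2-fold. Of 9 compared replication genes, RFC2 was at -1.14, and MCM3, a subunit of the replicative helicase, was at 22.2 against 19.8 CPM. MCM3 also passed the filter through cluster 9 alone. Cluster 9 had rank 3 of 12 day 2 clusters in the sum of each of these 5 lists, which cluster 24 led. Below the filter, FOXM1, a transcription factor of mitotic genes chosen here after its values were seen, was at 4.91 against 2.18 CPM, a ratio of 2.26 (1.62 to 3.08). Other members below the filter went both ways. The ratio was 1.80 for PBK (1.41 to 2.27), 0.513 for PLK4 (0.309 to 0.804) and 0.489 for KIFC1 (0.264 to 0.837).

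In the other lists the few members past 2-fold were mostly lower, as they were among all compared genes, of which 8.21% were lower and 0.163% higher. With 6 to 16 genes a list, single lower members are near that background. With TMM scaling RFC2, BTG1, JAG2, BNIP3, JUN, ISG15 and KRT7 were no longer 2-fold lower, at -0.84 to -0.95. EGLN3 and S100A6 were then past 2-fold higher, at 1.13 and 1.02. Of 8 compared duct genes, KRT19, the duct keratin, was at 1784 against 5489 CPM, KRT7 at 1091 against 2250 CPM and CAPG at 139 against 447 CPM, while ADIRF was at 4244 against 2880 CPM. The summed duct list was lowest in cluster 9 of the 12 clusters, at 9617 CPM, although the cells were classed as ductal. Of 11 basal genes, DST and JAG2 were 2-fold lower, and KRT5 was at 512 against 930 CPM. Of 13 immediate early genes, JUN, JUNB and IER3 were 2-fold lower, with JUNB at 200 against 497 CPM, while FOS was at 484 against 442 CPM. Of 10 cell cycle control genes, CCND1, a D cyclin, was at 29.6 against 80.2 CPM and BTG1 at 346 against 752 CPM, and CCND2 at 533 against 389 CPM. Of 16 hypoxia and glycolysis genes BNIP3 was 2-fold lower, with LDHA at 359 against 640 CPM, and EGLN3 was the one with the highest difference. The summed lists of cell cycle control, hypoxia and immediate early genes were each lowest in cluster 9 of the 12 clusters. JAG2 was also the 1 lower gene of 6 in the Notch list, and ISG15 that of 6 interferon genes.

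The secretory and barrier lists had few members past 2-fold, which was also the case for all compared genes. Over all phases none of 5 compared secretory genes reached 2-fold, with LYPD2 at 106 against 83.5 CPM, MUC16 at 129 against 108 CPM and MUC5AC at 26.4 against 32.0 CPM, and the club cell genes SCGB3A1 and BPIFA1 had no UMI. Of 4 oxidase genes DUOX2 was higher, while its partner DUOXA2 was at 31.5 against 37.4 CPM and DUOX1 at 66.5 against 74.2 CPM. Of 11 grainyhead and squamous genes GRHL3 was higher and LY6D lower, and GRHL2 was at 32.4 against 22.0 CPM and KLF4 at 47.9 against 27.3 CPM. The study's own centroacinar list, which is not independent of these cells, had 3 compared genes with a median of -0.75, of which KRT7 was 2-fold lower. Its sum was the highest of the 12 clusters through S100A6, at 37771 against 21418 CPM. Of the 7 genes of its acinar list none passed 2-fold, with a median of -0.81, and of 8 compared centroacinar progenitor genes none did, with a median of 0.22. NR5A2 was the 1 acinar gene compared, at 72.7 against 53.1 CPM.

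Most markers of other cell types had few or no UMIs. Of 12 endocrine genes 10 had no UMI in the cluster, among them INS and GCG. The sum of 3.08 CPM rested on 32 UMIs and was the highest of the 12 clusters, with cluster 22 close at 2.95 CPM. Its ratio to the other CF day 2 cells was 1.34 (0.895 to 1.95), an interval that includes 1. Of the other lists, 6 of 7 endothelial and 6 of 7 ciliated genes had none, FOXJ1 included. Of 8 immune genes 3 had none, and the sum, at 16.2 CPM, was mostly CD68 at 14.6 CPM, against 21.6 CPM in the other cells. Of 8 fibroblast and stellate genes 5 had none, and the sum was 1.06 CPM against 8.28 CPM in the other cells. The sum of 14 matrix and contractile genes was 14.1 against 53.7 CPM.

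Within each phase lower genes again outnumbered higher ones. Among G1 cells 13 of 5512 genes were 2-fold higher (0.236%) and 575 lower (10.4%), with GRHL3 2.65-fold higher (2.33 to 3.01) and SCGB1A1 at 24.5 against 9.73 CPM. SCGB1A1 passed the filter there through cluster 9 alone, with 82 of its 87 UMIs in 4 cells. UGDH, of hyaluronan precursor synthesis, was at 25.3 against 11.3 CPM and also passed the filter through cluster 9 alone. Of the 454 lower genes 411 were also 2-fold lower among G1 cells. These G1 cells are part of the cells that gave the list, so the overlap is not a separate result. Among S cells 78 of 5591 were higher (1.4%) and 601 lower (10.7%). Among G2M cells 76 of 5658 were higher (1.34%) and 516 lower (9.12%), led by ATP10A at 24.1 against 5.51 CPM, ATP6V1G3, a proton pump subunit, at 36.3 against 9.47 CPM and DUOX2 at 48.4 against 12.9 CPM. CMPK2, PLCH1, GLRX, LOC101679955 and ENPP3 followed. Except for GLRX, each of these higher G2M genes passed the filter of 20 CPM through cluster 9 alone. The secretory list summed to 484 against 231 CPM among G2M cells, with 3 of 5 genes 2-fold higher, and to 459 against 265 CPM among S cells, with 2 of 5. Among G1 cells the sum was 405 against 437 CPM. Over all phases the secretory sum of cluster 9 was 451 CPM, rank 4 of the 12 clusters, with cluster 4 highest at 941 CPM. Its ratio to cluster 8 was 0.693 (0.669 to 0.717). The progenitor list of the study had 4 of 8 genes higher among G2M cells, 3 among S cells and none among G1 cells. It shares MUC5AC, MUC5B, MUC4, MUC16 and TFF3 with the secretory list, so these are not separate results. The other G2M and S cells included those of clusters 24 and 10. The linker histone H1-5 was among the lowest in G2M cells, at 5.78 against 38.2 CPM. It passed the filter through the other cells alone.

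Cluster 8 was the day 2 cluster with the most similar levels, with a Pearson r of 0.971 over 6654 genes that share a library, followed by cluster 22 at 0.938. Against cluster 8, 8 of 5227 genes were 2-fold higher (0.153%) and 72 lower (1.38%), and with TMM scaling 13 were higher and 47 lower. The higher genes were led by CENPF at 41.5 against 3.84 CPM, TOP2A at 31.2 against 2.72 CPM and TPX2 at 21.3 against 3.66 CPM. PCLAF followed at 23.5 against 7.03 CPM and UBE2C at 37.1 against 11.9 CPM. All of these belong to dividing cells, and all passed the filter of 20 CPM through cluster 9 alone, so they could only be called higher. Among the lowest were GALK1, CDC42EP5, SYT8 and VSIG2, at log2 differences of -1.28 to -1.55. Of these, GALK1 passed the filter through cluster 8 alone and could only be called lower. GRHL3 was at 76.1 and 50.1 CPM and DUOX2 at 41.6 and 41.1 CPM in clusters 9 and 8. The cells of cluster 8 were deeper, with a median of 39320 UMIs against 26424.

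Against cluster 10, the S-phase cluster, 161 of 5667 genes were higher (2.84%) and 675 lower (11.9%). With TMM scaling these counts were nearly balanced, at 335 higher and 376 lower. LOC101676065 was at 30.6 against 1.87 CPM, DUOX2 at 41.6 against 3.41 CPM and ATP6V1G3 at 33.9 against 3.41 CPM. MUC5AC, a gel-forming mucin, was at 26.4 against 2.75 CPM and CXCL14, a chemokine, at 32.5 against 3.74 CPM. All of these genes passed the filter of 20 CPM through cluster 9 alone. Of 25 compared replication genes 24 were 2-fold lower in cluster 9, with a median log2 difference of -1.91, and 4 of 5 secretory genes were higher. In the main comparison only 9 replication genes passed the filter. Most of the 25 thus passed it through cluster 10 alone and could only be called lower. Summed over all measured members, the replication list was at 464 against 1674 CPM. KRT15, a basal keratin, was at 3.08 against 33.1 CPM and also passed the filter through cluster 10 alone.

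Over the 30 CF clusters, the genes whose levels followed SCGB1A1 most closely were SLC10A3, CIAO2A, HINT1, LAMTOR5 and TMEM38B, with Spearman's rho of 0.89, 0.87, 0.87, 0.86 and 0.85 among 4851 genes. The clusters share libraries and depth, and SCGB1A1 was near 0 in most of them, with a median of 0.0782 CPM, so these values are a description. In the deposited pseudotime all 385 cells lay on lineage 3, with a median of 51.2 (quartiles 49.1 and 53.7), against 12.9 in the other day 2 cells and 40.9 in cluster 8. The highest value of all 4500 CF cells on that lineage, 61.4, was in cluster 9. On lineage 1, 84 of the cells had a value, with a median of 23.4.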

How the data were processed

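The 8 libraries were 10x Genomics droplet libraries of ferret cells. As deposited, the count matrices held UMIs per gene and barcode, which the authors made with Cell Ranger 5.0.1 on the assembly ASM1176430v1.1. The deposited cell table gave the authors' clusters, classes, phases, the percent of mitochondrial UMIs per cell and the S and G2M scores, made in Seurat with R 4.1.2 according to the submitters' processing notes. The authors removed cells with few genes or a high mitochondrial percent and doublets called by DoubletFinder, and merged the libraries without batch correction. In the cells kept, the lowest number of genes was 501 and the highest mitochondrial percent 19.99. The deposited pseudotime scores were from slingshot. How the phases were scored is not given in the sources used here. Cells above that limit are not in the values given here, which bears most on cluster 9, the day 2 cluster with the highest mitochondrial percent.

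Here, the cells of the deposited table were taken from the matrices and UMIs were summed per set of cells. CPM had exact Poisson intervals, shares Clopper-Pearson intervals and ratios exact conditional binomial intervals, all at 95%. Genes of at least 20 CPM in either set were compared as log2(CPM + 1), which understates the difference of low genes, with a limit of 2-fold. With 1 library for each genotype and day, no test was made. Shares were also counted after thinning each cell to 3000 or 8000 UMIs, and phases were called again with scanpy 1.11.5 from 41 S and 53 G2M genes. Other filters, pseudocounts, scalings (TMM of edgeR 4.0.16 and size factors of DESeq2 1.42.0) and cell sets were tried. Python 3.11.15, numpy 2.4.6, scipy 1.17.1, pandas 2.3.3, matplotlib 3.10.9 and R 4.3.3 were used, and the intervals and differences were tested on simulated data. The simulated sums were independent Poisson counts, the model that the intervals assume. This checked the calculation and not how the intervals hold for UMIs gathered in few cells.

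The genes named were the 6 label genes, CFTR, PDX1, the 15 highest and 15 lowest of the main comparison, the 8 highest and lowest within G1 and G2M, the 5 highest and lowest against clusters 8 and 10, and members of the gene lists. Not every gene that this rule names is printed, and some are not reported here. The cells, lists and comparisons were chosen with earlier results of these data known. The deposited normalized matrix was not used.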

Additional observations from a re-analysis of the deposited data

How the results depend on the processing

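The counts of higher and lower genes depended on the scaling and on the cells compared, while the lower genes outnumbered the higher in each alternative run. Against 9 higher and 454 lower genes, TMM scaling gave 60 and 236, DESeq2 size factors 60 and 228, and setting the median of all genes to 0 gave 59 and 234, and each of these kept the 9 higher genes. A filter at 100 CPM gave 5 and 150, cells weighted equally 98 and 759, and thinning to 3000 UMIs 123 and 850. Higher genes numbered 18 among ductal cells, 33 over all 4 days, 76 in G2M cells, and 19 without mitochondrial genes in the totals. Against cluster 8 alone 8 were higher and 72 lower, and none of the 9 higher genes of the main comparison was among these 8. TMM scaling gave 13 higher and 47 lower against cluster 8, and 335 and 376 against cluster 10. The centring on the median and the comparison with cluster 8 alone were chosen after seeing the data, as was leaving out the 5% of cells with the most UMIs, under which the ratio of G2M to G1 was 14.6 for TOP2A.

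Phases called again from all UMIs, at 3000 and at 8000 UMIs gave G1 shares of 81.6%, 79.7% and 79.5%, S shares of 0.779%, 4.81% and 5.34%, and G2M shares of 17.7%, 15.5% and 15.1%. With phases called again at 3000 UMIs the ratio of G2M to G1 was 5.24 for TOP2A, 5.90 for MKI67, 0.753 for GRHL3 and 1.03 for DUOX2, and that of SCGB1A1 reversed to 1.16. The cause was not tested. Both SCGB1A1 and TOP2A were counted in 4.16% of cells without thinning.

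Depth limits the low genes: 3 UMIs in the cluster at day 2 are 0.289 CPM. No paired analysis was possible because the results on cluster 9 compare cells of 1 library and come from no test. The cells of a library came from pooled animals, so the spread between animals was not measured.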
